A study of Gallus gallus with 24 samples.

Results

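The 9 genes described here encode chains of the muscle motor protein myosin, proteins that bind it and a kinase that acts on it. They are the myosin heavy chains MYH7B, MYH1E, MYH1C and MYH1D, the light chains MYL10 and MYL3, the binding proteins MYBPC1 and MYBPHL, and the light chain kinase MYLK2. They were taken by symbol, 9 of 20780 genes in the table, and all 9 reached the minimum level for testing, as did 10944 genes in all. The table lists them as ENSGALG00000030985 (MYH7B), ENSGALG00000029606 (MYH1E), ENSGALG00000032404 (MYH1C), ENSGALG00000027323 (MYH1D), ENSGALG00000001793 (MYL10), ENSGALG00000005448 (MYL3), ENSGALG00000012783 (MYBPC1), ENSGALG00000000164 (MYBPHL) and ENSGALG00000006273 (MYLK2).

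Muscle RNA was sequenced from hens of the Guangyuan Grey breed, all sampled at 210 days of age after fasting. Samples came from the pectoralis major (PEM), the breast muscle, on its side facing the skin, and from the soleus (SOL), a leg muscle, at its widest point. The study asked how these muscles differ and how each responds to a shorter and a longer high-fat diet. The control group (CONT) ate a normal diet, SHFD hens ate a high-fat diet for 15 days and LHFD hens for 60 days. Each of the 6 combinations of muscle and diet holds 4 libraries, 24 in all, numbered 1 to 4 within a group. A list of 30 library names came with the data, against the 24 with values, and the reason is not given. The labels call the libraries of a group biological replicates but do not tie libraries to birds, although both muscles came from the same hens, so p-values measure only how far these samples spread.

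In the thick filament a pair of heavy chains forms each myosin, and every head carries an essential and a regulatory light chain. Which heavy chain a fibre makes is the usual basis for calling it slow or fast. Chickens keep a row of fast heavy chain genes, the MYH1 group, side by side on a chromosome, while MYH7B is listed in RefSeq with the synonyms SM2 and SSMHC, the names of a slow chain. Myosin-binding proteins C and H lie along the thick filament, and MYLK2, the kinase of skeletal muscle, phosphorylates the regulatory light chain when calcium-loaded calmodulin binds it.

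Values are FPKM, a measure of fragments per unit of transcript length in a library of standard size, so levels can be compared between genes, while the read depth behind them is unknown. The libraries summed to between 474667 and 525731 FPKM, with 9285 to 10590 genes at 1 FPKM or more. Transcripts encoded by mitochondrial DNA made up 10.4% to 17.3% of that sum in PEM and 20.6% to 27% in SOL. Of the skeletal muscle markers, 6 of 10 had a row and summed to between 32847 and 47325 FPKM in PEM and between 35059 and 47719 in SOL. Heart markers summed to at most 3.22 FPKM in PEM and 82.4 in SOL, nearly all of it TNNT2, and the heart factors NKX2-5 and GATA4 stayed at or below 0.0149 FPKM. Summed markers of smooth muscle, endothelium and nerve were higher in every SOL than in every PEM library, for example endothelial sums of 109 to 166 against 39.3 to 83.8 FPKM. The smooth muscle list includes desmin, which skeletal muscle also makes. Fat cell sums ran higher in SOL but overlapped, at 83.8 to 180 against 21.8 to 97.4 FPKM. The overlap was CONT_PEM 2 alone, as every other PEM library held 50.1 FPKM or less. CONT_PEM 2 also had the highest macrophage sum of the 24 libraries, 683 FPKM. Its mean correlation with its own group, 0.943, was the lowest. The part of these cell types in the muscle differences given here was not tested. In such bulk tissue, fewer fibres of a type and less RNA per fibre cannot be told apart. Among the SOL libraries SHFD_SOL 4 stood apart in its myosins and SHFD_SOL 1 and 3 in MYBPHL, so results that rest on them are given with and without them.

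The muscles differed in nearly every one of these genes. Of the 9 genes, 6 were higher in SOL and 3 lower under CONT, again 6 and 3 under SHFD, and 6 and 2 under LHFD. These calls are those of limma on log2(FPKM + 1) with an adjusted p under 0.05 over all genes tested. They have to be read against a background in which 50.7%, 51.6% and 43.8% of all genes were called between the muscles under CONT, SHFD and LHFD. Higher in SOL were 30.7%, 26.5% and 28.9% of all genes, and lower 20%, 25.1% and 14.9%. The median log2 fold change of the 9 genes was 2.14, 1.63 and 2.59 in these comparisons, against 0.12, 0.04 and 0.14 for all genes. Groups did not overlap for 9, 6 and 8 of the 9 genes, against 43.9%, 44.3% and 41.9% of all genes. The 9 genes were chosen with earlier results of these data known. Their counts and medians may reflect that choice and are given as a description. MYH7B and MYL3 reached the minimum level for testing only through SOL, which favoured their calls as higher there.

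**Figure D1:**
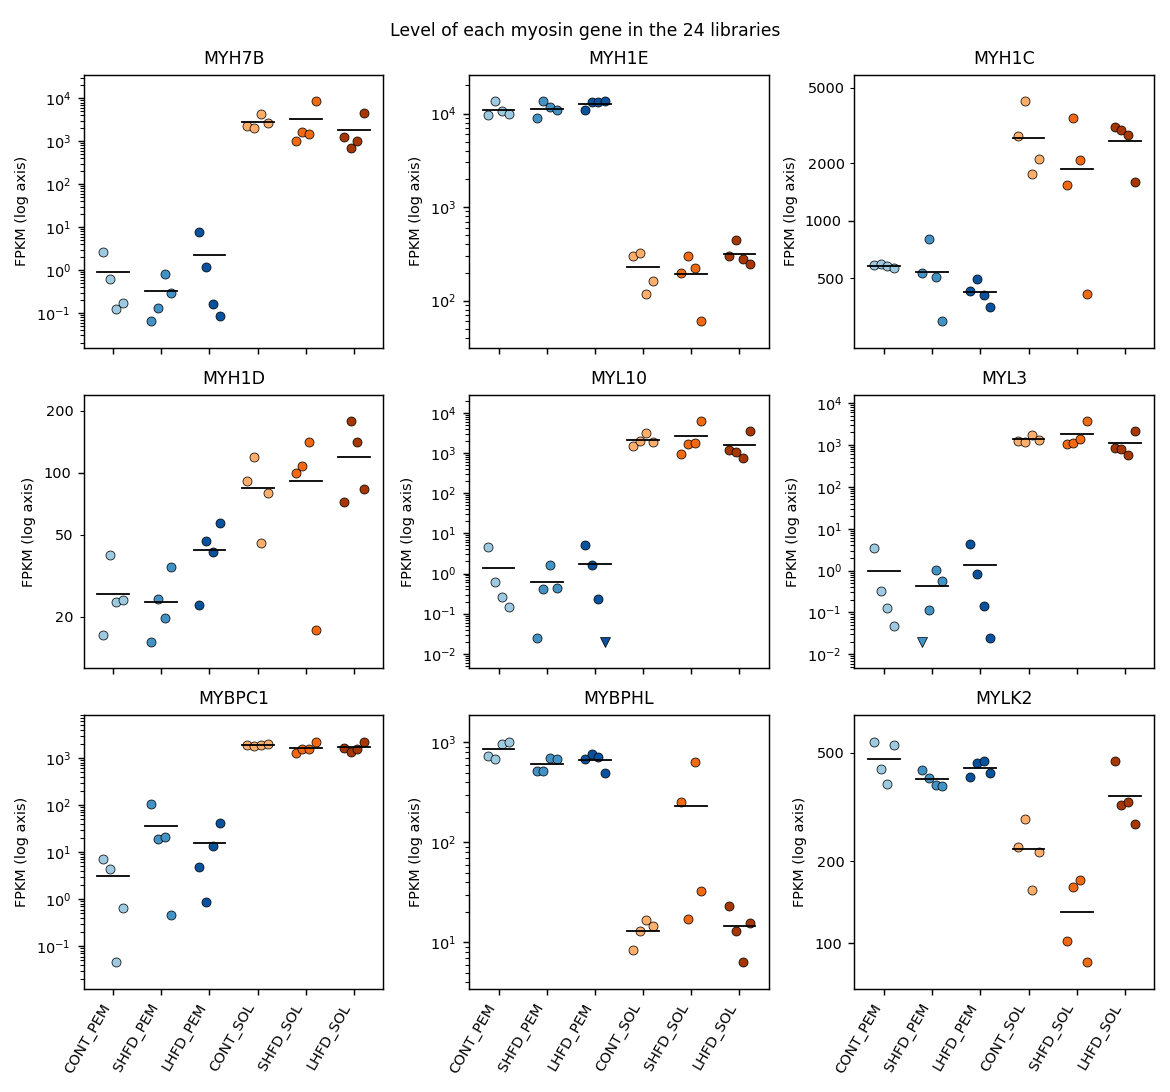
FPKM on a log axis (y) of each of the 9 genes in the 24 libraries by group (x), each point 1 library, each bar the group mean, and a triangle a value listed at 0, drawn at 0.02. MYH7B, MYL10, MYL3 and MYBPC1 lie at 585 FPKM or more in every SOL library, while MYH1E and MYBPHL are high in every PEM library and MYBPHL also reaches 252 and 635 in 2 SHFD_SOL libraries.

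MYH7B, the slow heavy chain, was near absent from PEM and abundant in SOL. Its CONT_PEM libraries read 2.7, 0.623, 0.125 and 0.169 FPKM, those of SHFD_PEM 0.0637, 0.131, 0.789 and 0.289, and those of LHFD_PEM 7.68, 1.16, 0.159 and 0.0871. In SOL the levels were 2290, 2039, 4303 and 2706 FPKM under CONT, 1024, 1690, 1476 and 8699 under SHFD, and 1236, 714, 1024 and 4455 under LHFD. No SOL library came near any PEM library, yet SOL libraries differed among themselves by 12.2-fold, with CONT_SOL 3, SHFD_SOL 4 and LHFD_SOL 4 the highest of their groups. The log2 fold change was 10.66 (SE 0.653, limma adjusted p = 3.04e-11) under CONT, 10.72 under SHFD and 9.33 under LHFD. Because 1 FPKM is added before the log is taken, fold changes against levels this low are understated.

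MYH1E was the main heavy chain of PEM and a minor one of SOL. It stood at 9616, 13616, 10529 and 10002 FPKM in CONT_PEM, at 8908, 13618, 11725 and 10796 in SHFD_PEM and at 10851, 13313, 13397 and 13576 in LHFD_PEM. The SOL libraries held 300, 327, 119 and 162 FPKM under CONT, 198, 298, 224 and 60.1 under SHFD, and 301, 441, 281 and 244 under LHFD. Every PEM library thus lay above every SOL library, with SHFD_SOL 4 the lowest of all. The log2 fold change of SOL against PEM was -5.69 (SE 0.359, limma adjusted p = 4.74e-11) under CONT, -6.04 under SHFD and -5.36 under LHFD.

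MYH1C, a gene next to MYH1E in the same row, went the other way and was among the main heavy chains of SOL. CONT_SOL held 2772, 4252, 1761 and 2099 FPKM against 584, 597, 581 and 563 in CONT_PEM, so that SOL was higher by 2.14 on the log2 scale (SE 0.431, limma adjusted p = 0.000313). LHFD_SOL held 3120, 2994, 2823 and 1589 FPKM against 430, 498, 410 and 355 in LHFD_PEM, a log2 fold change of 2.59. In neither diet did the muscles overlap. Under SHFD they did, since SHFD_SOL read 1534, 3453, 2094 and 414 and SHFD_PEM 534, 807, 509 and 297 FPKM. The log2 fold change there was 1.53 (adjusted p = 0.00539 in limma), and 2.14 (adjusted p = 1.75e-05 in limma) without SHFD_SOL 4. It was not called without SHFD_SOL 1 and 3 (1.24, adjusted p = 0.0726). That pair was chosen for its MYBPHL, and leaving it out keeps only SHFD_SOL 2 and 4.

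MYH1D, the gene at one end of the row, stayed low in both muscles. SOL libraries held 91.3, 120, 45.7 and 80.2 FPKM under CONT, 99.4, 108, 141 and 17.2 under SHFD, and 71.8, 178, 142 and 83.3 under LHFD. PEM libraries held 16.2, 39.8, 23.5 and 24 FPKM under CONT, 15.1, 24.5, 19.7 and 35 under SHFD, and 22.7, 46.5, 41.3 and 57.3 under LHFD. Apart from SHFD_SOL 4, which lay among the PEM levels, SOL was the higher muscle in each diet. Its log2 fold change was 1.66, 1.63 and 1.46 under CONT, SHFD and LHFD, with limma adjusted p of 0.0073, 0.00801 and 0.0193. The call under LHFD was lost without LHFD_SOL 2 (1.23, adjusted p = 0.0664) or LHFD_SOL 3 (1.34, adjusted p = 0.0513). Leaving out LHFD_PEM 1 also lost it (1.19, adjusted p = 0.0648). Under SHFD the log2 fold change was 2.3 (adjusted p = 4.29e-05 in limma) without SHFD_SOL 4. That call was lost without SHFD_SOL 1 and 3 (0.92, adjusted p = 0.196), a pair chosen for its MYBPHL, which leaves SHFD_SOL 2 and 4.

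The fast heavy chains are near copies of each other. In the RefSeq gene order of another assembly, GRCg7b, MYH1D, MYH1F, MYH1A, MYH1B, MYH1E, MYH1C and MYH1G follow each other with 0 protein-coding genes between neighbours. RefSeq also gives MYH1B as a synonym of MYH1D, while the table holds a row for each. A read that matches several copies may have been counted for another of them, so the split among the MYH1 genes is uncertain.

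Set side by side as shares, the heavy chains of the muscles had different make-ups. Of 17 sarcomeric heavy chain genes listed, 9 had a row, and these summed to between 10063 and 15441 FPKM in PEM and between 4770 and 9328 in SOL. MYH1E made up 88.2% to 92.4% of that sum in the 12 PEM libraries, with MYH1C at 2.42% to 5.39% and MYH7B at no more than 0.0645%. MYH1C came next after MYH1E in every PEM library but SHFD_PEM 4, where MYH1A held 2.64% and MYH1C 2.51%. In SOL no gene held such a share throughout. MYH7B ranged from 10.9% to 93.3%, MYH1C from 4.44% to 50.7%, MYH1A, another gene of the row, from 0.564% to 37.7%, and MYH1E from 0.644% to 6.75%.

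In 3 SOL libraries MYH7B held most of the sum. They were SHFD_SOL 4 at 93.3%, CONT_SOL 3 at 60.7% and LHFD_SOL 4 at 58.8%, and the other 9 libraries lay between 10.9% and 33.2%. Each diet had 1 such library. The mean share of MYH7B was 36.6% ± 16.4 (SD, n = 4) in CONT_SOL, 39.5% ± 35.8 in SHFD_SOL and 24.5% ± 22.9 in LHFD_SOL, and the difference between these means was smaller than the spread. Without its highest library the mean was 28.6% in CONT_SOL (without CONT_SOL 3), 21.6% in SHFD_SOL (without SHFD_SOL 4) and 13.1% in LHFD_SOL (without LHFD_SOL 4). In PEM the share of MYH1E was 88.8% ± 0.721 (SD, n = 4) under CONT, 89.6% ± 1.48 under SHFD and 91.4% ± 1.01 under LHFD. CONT_PEM, at 88.3% to 89.9%, did not overlap LHFD_PEM, at 90.1% to 92.4%, and no test was made on these shares. By FPKM, groups did not overlap for 11.8% of all genes in that comparison. The FPKM of MYH1E itself did overlap, with a log2 fold change of 0.23 (adjusted p = 0.783 in limma).

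**Figure D2:**
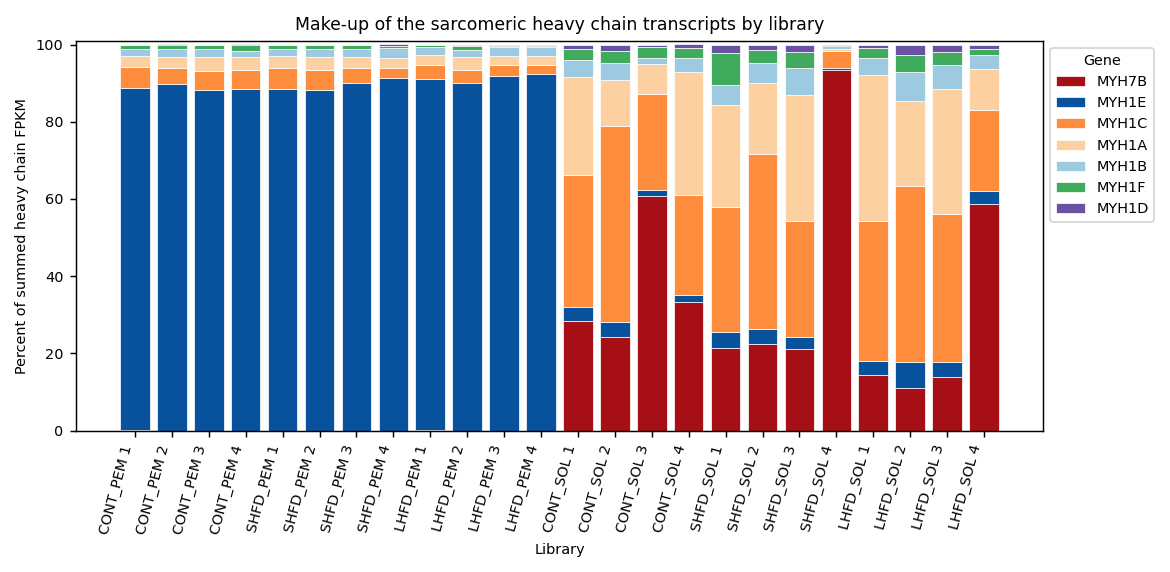
Percent of the summed heavy chain FPKM (y) held by each of 7 genes in each of the 24 libraries (x); MYH7 and MYH15, at or below 0.149%, are not drawn. MYH1E fills 88.2% to 92.4% of each PEM library, while the MYH7B share of the SOL libraries runs from 10.9% to 93.3%.

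The light chains MYL3 and MYL10 followed MYH7B. MYL3, an essential light chain that mammals use in slow fibres and the ventricle, held 1264, 1178, 1748 and 1295 FPKM in CONT_SOL against 3.41, 0.332, 0.125 and 0.0482 in CONT_PEM. MYL10, a regulatory light chain with the RefSeq synonym MLC-2B, held 1458, 2039, 3154 and 1859 FPKM in CONT_SOL against 4.48, 0.624, 0.26 and 0.148 in CONT_PEM. Both were separated from PEM in every library, by 9.71 (SE 0.514, limma adjusted p = 2.6e-12) for MYL3 and 10.08 (SE 0.606, limma adjusted p = 2.39e-11) for MYL10 on the log2 scale.

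Under the high-fat diets the light chains kept that separation. SHFD_SOL held 1052, 1097, 1353 and 3665 FPKM of MYL3, and LHFD_SOL 857, 788, 585 and 2140, while no SHFD_PEM or LHFD_PEM library passed 4.31. For MYL10 the levels were 962, 1678, 1767 and 6149 FPKM in SHFD_SOL and 1206, 1053, 731 and 3484 in LHFD_SOL, with at most 5.23 in PEM. The highest library of each set was number 4, the same library that led MYH7B. Log2 fold changes were 10.15 and 9.03 for MYL3 and 10.39 and 9.31 for MYL10 under SHFD and LHFD.

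As with MYH7B among the heavy chains, the slow light chains of SOL took the smaller part of their pools in most libraries. MYL10 made up 9.95% to 79.8% of the summed FPKM of the regulatory chains MYL10, MYLPF and MYL2, with a median of 20.4%. MYL3 made up 6.81% to 74.4% of the essential chains MYL3, MYL1 and MYL4, with a median of 14.1%. The highest share of both was that of SHFD_SOL 4, where the fast regulatory chain MYLPF was at 1396 FPKM against a SOL median of 6449. In PEM neither MYL10 nor MYL3 passed 0.0413% of its pool.

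The binding proteins were split between the muscles. MYBPC1, the C protein known from slow skeletal fibres in mammals, held 1841, 1832, 1913 and 2018 FPKM in CONT_SOL, 1305, 1559, 1580 and 2215 in SHFD_SOL and 1665, 1340, 1568 and 2171 in LHFD_SOL. These SOL levels spanned 1.7-fold from lowest to highest, against 12.2-fold for MYH7B. The PEM levels spread far more, at 7.16, 4.27, 0.0457 and 0.647 FPKM under CONT, 103, 19.2, 20.9 and 0.455 under SHFD, and 4.81, 0.853, 13.2 and 42.2 under LHFD. No PEM library reached the SOL levels. SOL was higher by 9.34 (SE 0.927, limma adjusted p = 4.8e-08) under CONT, 6.67 under SHFD and 7.53 under LHFD on the log2 scale.

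MYBPHL, which RefSeq also lists as MyBP-H, was the mirror image under CONT and LHFD. CONT_PEM held 736, 676, 974 and 1018 FPKM against 8.36, 13.1, 16.6 and 14.6 in CONT_SOL, a log2 fold change of SOL against PEM of -5.93 (SE 0.684, limma adjusted p = 4.08e-07). LHFD_PEM held 684, 763, 715 and 496 FPKM against 22.9, 13.1, 6.36 and 15.7 in LHFD_SOL, at -5.53. Under SHFD the muscles overlapped, with 515, 521, 702 and 677 FPKM in SHFD_PEM and 252, 17.2, 635 and 32.6 in SHFD_SOL. The difference there was -2.59 (adjusted p = 0.00341 in limma). Without SHFD_SOL 1 and 3, picked for their high MYBPHL, it was -4.6, a widening that this choice fixed in advance.

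MYLK2, the kinase, was lower in SOL under CONT and SHFD. CONT_PEM held 549, 435, 383 and 536 FPKM and CONT_SOL 225, 287, 157 and 217, a log2 fold change of -1.12 (SE 0.206, limma adjusted p = 0.00013). SHFD_PEM held 433, 404, 382 and 379 FPKM and SHFD_SOL 102, 161, 171 and 85.4, a log2 fold change of -1.67 (adjusted p = 1.08e-06 in limma). Neither pair of groups overlapped. LHFD_PEM held 407, 459, 465 and 421 FPKM and LHFD_SOL 467, 321, 331 and 273, which overlapped, and the log2 fold change of -0.36 (95% interval -0.79 to 0.07, limma adjusted p = 0.166) was not called, except after quantile normalization (-0.56, adjusted p = 0.0389). Whether the difference between muscles itself changed from CONT to LHFD was tested as an interaction, 0.76 (SE 0.292, unadjusted p = 0.0163, limma adjusted p = 0.749), which was not called.

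**Figure D3:**
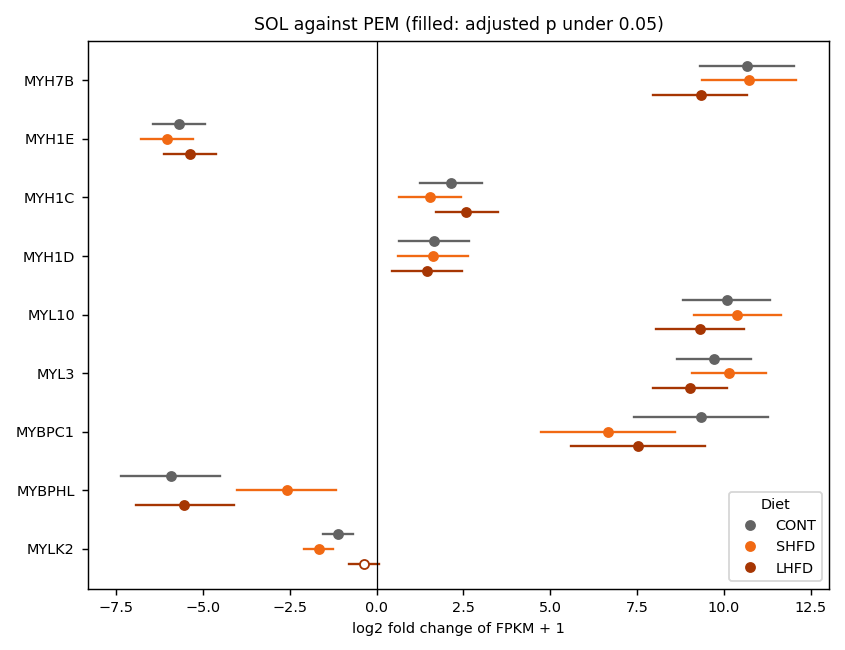
Log2 fold change of SOL against PEM (x) of the 9 genes (y) under CONT, SHFD and LHFD, with the 95% interval as a line, and filled points for an adjusted p under 0.05 in limma. The genes reach from -6.04 for MYH1E to 10.72 for MYH7B, and MYLK2 under LHFD, at -0.36, is the open point.

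The order of levels differed between the muscles. By group mean, PEM ran from MYH1E, at 10941 ± 1823 FPKM (SD, n = 4) under CONT, to MYBPHL at 851 ± 170, MYH1C at 581 ± 13.9 and MYLK2 at 476 ± 80. MYH1D followed at 25.9 ± 9.94, and MYBPC1, MYL10, MYL3 and MYH7B, at 3.03 FPKM or less, came last, each apart from the next in that order by less than the SD of either. CONT_SOL ran from MYH7B at 2834 ± 1017 and MYH1C at 2721 ± 1104 to MYL10 at 2128 ± 726, MYBPC1 at 1901 ± 86.3 and MYL3 at 1371 ± 256. Of these, only MYBPC1 and MYL3 were neighbours that lay apart by more than the SD of both. MYH1E at 227 ± 102 and MYLK2 at 221 ± 53.4 differed by less than their SDs, with MYH1D at 84.3 ± 30.8 and MYBPHL at 13.2 ± 3.52 below them.

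Other genes of the same families were counted from lists, leaving the 9 genes out. Of 4 other sarcomeric heavy chains tested, only MYH7 was called under CONT, higher in SOL by 1.63 with a mean of 2.59 FPKM there, while MYH1A and MYH1F were also higher under LHFD, at 2.26 and 1.57. Of 3 other sarcomeric light chains, MYL2, another slow chain, held 13.2 to 399 FPKM in SOL and was listed at 0 in every CONT_PEM library. MYLPF was lower in SOL, at -1.17, and MYL1, the fast essential chain, was not called, at -0.64 (adjusted p = 0.195 in limma). Among 4 binding and M-band genes, MYOM3 and MYOM1, which cross-link thick filaments, were higher at 6.54 and 0.59, and OBSL1 was lower at -1.01. MYH7, MYL2 and MYOM3 never passed 0.789 FPKM in PEM. They reached the minimum level for testing only through SOL, so the filter favoured counting them as higher there. The medians of the 3 lists were 1.20, -0.64 and 0.20 on the log2 scale.

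Around MYLK2, 6 of 9 other genes of light chain phosphorylation and its reversal were higher in SOL under CONT and 2 lower. The kinase MYLK3 was higher at 3.71 and the phosphatase subunit PPP1CB at 1.89, while CALM2, which encodes calmodulin, was lower at -2.62. MYLK3 stayed at or below 0.404 FPKM in PEM and likewise reached the minimum level only through SOL. Of 12 genes listed under myosin folding, assembly and turnover, not all of which act on myosin itself, 6 were higher and 2 lower. They included the chaperone CRYAB at 2.03, the methyltransferase SMYD1 at 1.67, the ring-finger protein TRIM54 at 0.88 and its relative TRIM55 at -2.28. UNC45B, the myosin chaperone of striated muscle, was not called, at -0.34 (adjusted p = 0.132 in limma). Of 11 genes listed as smooth and non-muscle myosins, 10 were higher in SOL, led by MYL12A at 4.53, MYH10 at 2.92 and MYL9 at 1.93, and none was lower. Medians of these 3 lists were 0.69, 0.22 and 1.02 on the log2 scale, against 0.12 for all genes. The counts of these lists stand against 30.7% of all genes called higher under CONT and 20% called lower.

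Few diet comparisons were called in these genes. In PEM, 0 of 9 were called by limma in SHFD against CONT, LHFD against CONT or LHFD against SHFD, where 1.07%, 6.94% and 0.201% of all genes were called, and 1, 0 and 0 of the 9 had an unadjusted p under 0.05. MYH7B and MYL3 reached 1 FPKM in 3 of the 12 PEM libraries each and passed the minimum level only through SOL, so their PEM diet tests say little. MYL10 reached 1 FPKM in 4 of the 12, with a PEM median of 0.423, so its PEM diet tests say little too. In SOL, 0 of 9 were called in SHFD against CONT and in LHFD against CONT, where 0.557% and 0.521% of all genes were called, and 2 and 1 of the 9 had an unadjusted p under 0.05. In LHFD against SHFD 1 of 9 was called, against 0.886% of all genes called and 0.621% called higher, and 3 of the 9 had an unadjusted p under 0.05. For the difference of a diet effect between muscles 0 of 9 were called, with 0.00914% of all genes called for SHFD and 0% for LHFD, and 1 of 9 had an unadjusted p under 0.05 in each. These 3 comparisons within a muscle share samples with each other. The share of all genes with an unadjusted p under 0.05 was not computed. Whether the counts of the 9 genes by unadjusted p exceed it is therefore not known. The intervals are wide: for MYH7B in SOL, LHFD against CONT was -0.94 with a 95% interval from -2.29 to 0.42, so changes within that range could not be told from none.

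The called gene was MYLK2, higher after 60 than after 15 days of the diet in SOL. LHFD_SOL held 467, 321, 331 and 273 FPKM against 102, 161, 171 and 85.4 in SHFD_SOL, with CONT_SOL between them at 225, 287, 157 and 217. The LHFD and SHFD libraries did not overlap, as was so for 6.85% of all genes. The log2 fold change was 1.45 (SE 0.206, limma adjusted p = 0.00193), with an adjusted p between 0.00112 and 0.0472 over 33 alternatives. Against CONT neither diet was called, with -0.79 for SHFD (95% interval -1.22 to -0.36, adjusted p = 0.0699 in limma) and 0.65 for LHFD (95% interval 0.23 to 1.08, adjusted p = 0.172 in limma). SHFD against CONT was called without SHFD_SOL 2 (-0.92, adjusted p = 0.0366). In PEM MYLK2 stayed between 379 and 549 FPKM, with LHFD against SHFD at 0.13 (95% interval -0.30 to 0.56). No other gene of the kinase and phosphatase list was called in a diet comparison.

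**Figure D4:**
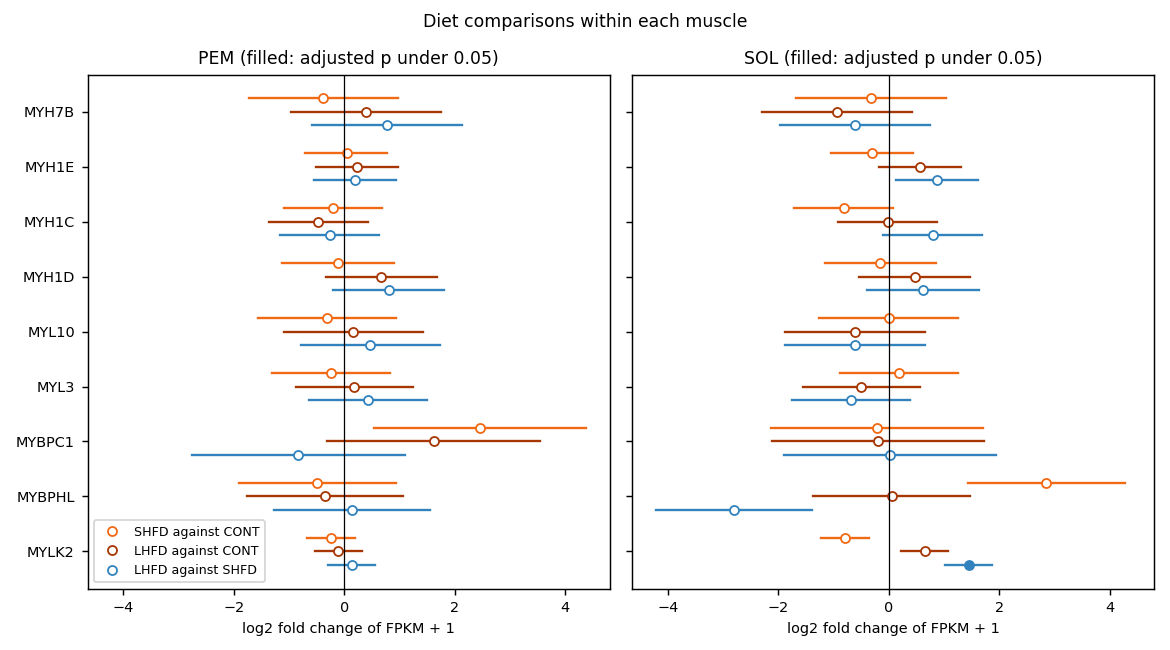
Log2 fold change (x) of the 9 genes (y) in 3 diet comparisons within PEM (left) and SOL (right), with 95% intervals as lines, and filled points for an adjusted p under 0.05 in limma. The filled point is MYLK2 in SOL, LHFD against SHFD, at 1.45, and the largest values among the open points are MYBPHL in SOL, at 2.85 and -2.80, and MYBPC1 in PEM at 2.46.

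MYBPHL showed the largest fold change of the 9 genes in any diet comparison, and it lay in 2 libraries. SHFD_SOL 1 and 3 held 252 and 635 FPKM, where SHFD_SOL 2 and 4 held 17.2 and 32.6, CONT_SOL at most 16.6 and LHFD_SOL at most 22.9. SHFD did not overlap CONT, as was so for 9.81% of all genes, and the log2 fold change was 2.85 (SE 0.684, limma adjusted p = 0.0578). LHFD against SHFD was -2.80 (adjusted p = 0.0527 in limma). Neither passed the threshold, though 5 and 4 of 33 alternatives did, among them the fits without SHFD_SOL 2 (3.67 and -3.62). Without SHFD_SOL 1 and 3, left out because they were high, the values fell to 0.84 (adjusted p = 0.623) and -0.79 (adjusted p = 0.56).

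The heavy chains of these libraries were compared with the rest of SOL. MYH1E, at 8908 FPKM or more in every PEM library, was 198 and 224 FPKM in SHFD_SOL 1 and 3, inside the range of the other SOL libraries. SHFD_SOL 1 had the lowest heavy chain sum of any SOL library, 4770 FPKM, and the highest share of MYH1F, 8.43% against at most 4.24% in the others. MYBPC1 was 1580 FPKM in SHFD_SOL 3, inside the range of the other SOL libraries, and 1305 in SHFD_SOL 1, the lowest of the 12. SHFD_SOL 1 had the highest summed smooth muscle and pericyte markers, 5733 FPKM against 3153 to 5099 in the other SOL libraries, and the highest satellite cell and regeneration markers, 461 against 172 to 347, while SHFD_SOL 3 lay within those ranges at 4821 and 287. Desmin, a filament protein of skeletal muscle as well, gave most of the first sum. Whether these markers bear on MYBPHL was not tested. The interaction of SHFD with muscle for MYBPHL was 3.34 (SE 0.967, unadjusted p = 0.00229, limma adjusted p = 0.486).

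The remaining diet values did not pass the threshold. MYBPC1 in PEM, SHFD against CONT, was 2.46 (SE 0.927, limma adjusted p = 0.228), with 3 of 4 SHFD_PEM libraries above every CONT_PEM library, and was called without SHFD_PEM 4 (3.61, adjusted p = 0.032). MYH7B, the slow heavy chain, was at most 0.789 FPKM in SHFD_PEM, and its bearing on the MYBPC1 value was not tested. MYH1E in SOL, LHFD against SHFD, was 0.87 (adjusted p = 0.337 in limma), and 0.38 without SHFD_SOL 4. MYH1C in PEM was lower in every LHFD than in every CONT library, 355 to 498 against 563 to 597 FPKM. Groups did not overlap for 11.8% of all genes in that comparison, and the MYH1C log2 fold change of -0.47 (SE 0.431, limma adjusted p = 0.594) was not called. For the heavy chain, light chain, binding protein, kinase and folding lists no other gene was called in any diet comparison. Among the smooth and non-muscle myosins MYO18A was higher in LHFD_PEM than in CONT_PEM, at 0.59 (adjusted p = 0.042 in limma).

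Within SOL many of these genes varied together from library to library. Correlations of log2(FPKM + 1) were computed for 51 pairs, 36 over the 12 SOL libraries and 15 over the 12 PEM libraries, among genes at 1 FPKM or more in at least 6 of the 12. After adjustment over the 51 pairs, 11 SOL pairs were positive and 10 negative at an adjusted p under 0.05, and in PEM 1 was positive and 1 negative. All values of a library are shares of the same total, so a gene that takes more leaves less to others. How often other pairs of genes correlate as strongly over these libraries was not computed, so the counts are a description.

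In SOL, MYH7B, MYL10, MYL3 and MYBPC1, genes of slow fibres, varied as a block. MYL2, another slow chain, was left out of the correlations and did not follow MYH7B in level. It was lowest in LHFD_SOL 4, at 13.2 FPKM, where MYH7B was 4455. Its highest SOL level was 399 FPKM in SHFD_SOL 1, where MYH7B was 1024. MYH7B correlated with MYL10 at r = 0.94 (permutation p = 1e-05, the smallest that 100000 permutations can give, adjusted 0.000255) and rho = 0.92 (permutation p = 7e-05, adjusted 0.00136). Its r with MYL3 was 0.92 (permutation p = 2e-05, adjusted 0.000255) and its rho 0.92 (permutation p = 5e-05, adjusted 0.00136). With MYBPC1 r was 0.91 (permutation p = 2e-05, adjusted 0.000255) and rho 0.92 (permutation p = 8e-05, adjusted 0.00136). Without LHFD_SOL 2 and SHFD_SOL 4, the libraries farthest from the median of MYH7B, r was 0.92, 0.86 and 0.88, and with each diet mean subtracted it was 0.95 for all 3. MYL3 and MYBPC1 had r = 0.75 (permutation p = 0.00394, adjusted 0.0126) and rho = 0.81 (permutation p = 0.00209, adjusted 0.0152), and 0.75 (adjusted 0.0823) without LHFD_SOL 3 and SHFD_SOL 4.

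The fast chains varied against that block. MYH7B correlated with MYH1D at r = -0.84 (permutation p = 0.00056, adjusted 0.00474) and rho = -0.76 (permutation p = 0.00616, adjusted 0.0349), and with MYH1C at r = -0.69 (permutation p = 0.0124, adjusted 0.0288) and rho = -0.46 (permutation p = 0.135, adjusted 0.245). With MYH1E r was -0.78 (permutation p = 0.00248, adjusted 0.0119) and rho -0.57 (permutation p = 0.0559, adjusted 0.136). Without the 2 libraries these fell to -0.62, -0.32 and -0.45, none with an adjusted p under 0.05 over the 10 libraries left. The relations with MYH1C and MYH1E, whose rank correlations over all 12 did not pass the threshold either, thus rest on SHFD_SOL 4 and LHFD_SOL 2. With diet means subtracted they were -0.84, -0.80 and -0.79. MYH1E and MYH1C, which go opposite ways between the muscles, went together within SOL at r = 0.89 (permutation p = 0.00065, adjusted 0.00474) and rho = 0.83 (permutation p = 0.00163, adjusted 0.0139), and at 0.69 (adjusted 0.15) without CONT_SOL 3 and SHFD_SOL 4.

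**Figure D5:**
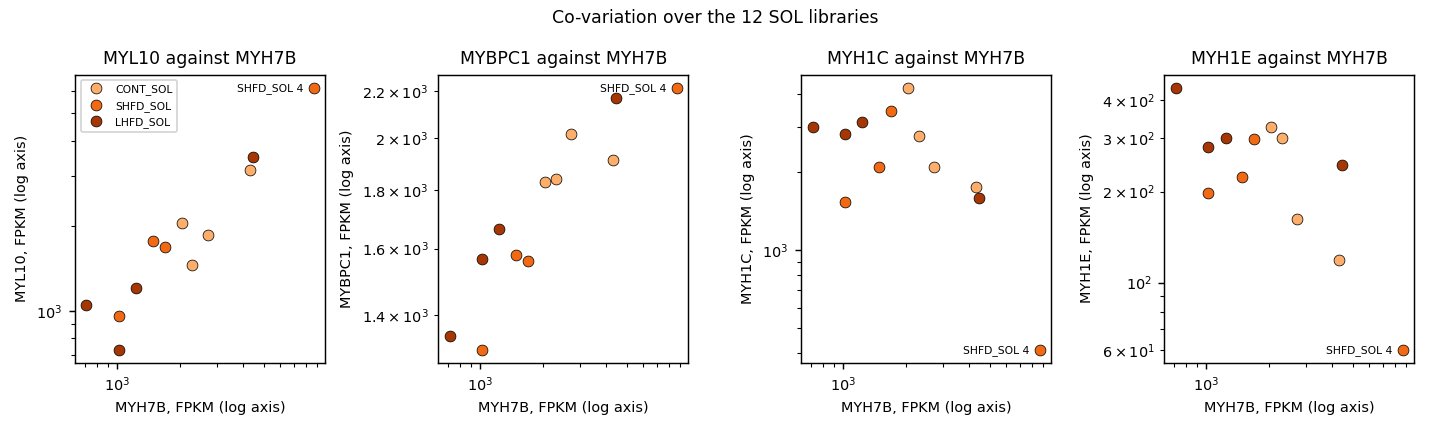
FPKM of MYL10, MYBPC1, MYH1C and MYH1E (y, log axes) against MYH7B (x, log axis) in the 12 SOL libraries, each point 1 library coloured by diet. MYL10 and MYBPC1 climb with MYH7B (r of 0.94 and 0.91), and SHFD_SOL 4 stands at one end of every panel, with 60.1 FPKM of MYH1E.

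MYLK2 and MYBPHL stood outside the slow block in SOL. MYLK2 correlated with MYH1E at r = 0.73 (permutation p = 0.00563, adjusted 0.0165) and rho = 0.77 (permutation p = 0.00443, adjusted 0.0282), and at 0.53 without CONT_SOL 3 and SHFD_SOL 4, where it no longer held. The pair of MYLK2 and MYH1C also passed the threshold, with r = 0.83 after subtracting diet means. Without the 2 libraries farthest from the median of MYH1C it was 0.54 and no longer held. MYBPHL had no SOL pair past the threshold. In PEM, MYH1E and MYH1D correlated at r = 0.79 (permutation p = 0.00371, adjusted 0.0126) and rho = 0.71 (permutation p = 0.0117, adjusted 0.0544), and MYBPC1 and MYBPHL at r = -0.81 (permutation p = 0.0013, adjusted 0.00737) and rho = -0.66 (permutation p = 0.022, adjusted 0.0872). Without the 2 farthest libraries the first was 0.84 (adjusted 0.0485) and the second -0.71 (adjusted 0.122). In PEM, MYH1D held 15.1 to 57.3 FPKM beside 8908 to 13618 of its near copy MYH1E. The part of reads of MYH1E counted for MYH1D in their correlation was not tested.

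The genes whose levels were most like each of the 9, by r over the 12 libraries of the muscle where it is higher, are given as a description. For MYH7B in SOL they were DPYSL3 (0.98), PPP2R2B (0.97) and WASH1 (0.96), for MYL10 CORO6 (0.98), DPYSL3 (0.98) and CYB5R1 (0.97), and for MYL3 TNNC1, TPM3 and CORO6 (0.96 each). For MYBPC1 they were GIGYF2 (0.93), GABARAPL1 (0.92) and ZIC4 (0.92). MYH1C went with GRHPR, LDHA and TPI1 (0.96 each), where LDHA and TPI1 are enzymes of sugar breakdown, and MYH1D with MYH1B (0.95), MYOZ1 (0.92) and MYLPF (0.92). In PEM, MYH1E went with MYH1B (0.90), ARHGEF16 (0.86) and BICD2 (0.85), MYBPHL with FBXO33 (0.84), TRUB1 (0.83) and MAPK8 (0.83), and MYLK2 with DDX25 (0.81), TMEM237 (0.73) and DSN1 (0.73). The lowest rank correlations were 0.49 for DSN1 with MYLK2, and 0.65 and 0.70 for MYLPF and MYOZ1 with MYH1D. ARHGEF16 stayed at or below 0.921 FPKM in PEM. The split of reads among MYH1E, MYH1D and MYH1B is uncertain, and its part in their likeness was not tested.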

How the data were processed

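The authors deposited 1 FPKM value per gene and library. According to the labels' protocols, fastp cleaned the reads, HISAT2 placed them on GRCg6a with Ensembl genes, and StringTie v1.3.3b assembled and quantified transcripts. DESeq2 and Cufflinks appear in the submitters' processing notes with no role. FPKM are shares of a library's total. No counts were used, the depth is unknown and no counting interval is given. Of 17203 ratios of low values of a gene between libraries, 4.34% were whole multiples to within 0.02. Such ratios also depend on the depths of the libraries, so they cannot show whether whole reads lie behind the values.

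From these values log2(FPKM + 1) was fitted with limma 3.58.1 (R 4.3.3) with a variance trend, in 1 model of the 6 groups over all 24 libraries (18 residual degrees of freedom). A gene was tested if 4 or more libraries had 1 FPKM or more, as 10944 of 20780 had. Tests are two-sided, adjusted by Benjamini-Hochberg over these genes, and called under 0.05. The script was tested on simulated data. Correlations used permutation tests of 100000 resamples (scipy 1.17.1).

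The 9 genes and all lists were chosen with earlier results of these data known. Genes named beside the 9 are up to 4 called members of a list with the smallest p under CONT and up to 2 elsewhere, and the 3 most similar genes with a symbol; 1 gene that this rule names is not reported here. MYH1A, MYH1F, MYL1 and UNC45B were named after their values were seen. Alternatives were quantile normalization, equal sums over nuclear-encoded genes or over genes outside the 9, a pseudocount of 0.1, no filter, only the groups compared, a replicate block and leaving out each library. Added after seeing the data were leaving out SHFD_SOL 1 and 3, leaving out CONT_PEM 1 and 2, and correlations without the 2 farthest libraries. Gene order and synonyms are RefSeq's (GRCg7b), matched by symbol for 9 of 9 genes. Protein and promoter sequences were not analysed here.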

Additional observations from a re-analysis of the deposited data

Results flagged for a closer look

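In 4 of the 54 sets of 4 libraries (9 genes in 6 groups), 1 library stood apart from the other 3. The rule was Dixon's test on log2(FPKM + 1) at the 95% level. Chance gives about 1 set in 20, so some such sets are to be expected among 54. MYH1E in LHFD_PEM 1 was 10851 FPKM, below the 13313 to 13576 of the other 3, and that library also had the second highest macrophage marker sum in PEM, 402 FPKM. MYH1C in LHFD_SOL 4 was 1589 FPKM, below 2823 to 3120, in a library whose MYH7B was the highest of its group at 4455. MYH1D in SHFD_SOL 4 was 17.2 FPKM, below 99.4 to 141, in the library with the highest MYH7B of all, 8699. MYL3 in CONT_PEM 1 was 3.41 FPKM, above 0.0482 to 0.332, in the library that also had the highest MYH7B (2.7) and MYL10 (4.48) of its group. The part of these companions in the 4 values was not tested.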

How the results depend on the processing

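The 9 genes kept their direction between the muscles under all 33 alternatives. All 9 were called throughout under CONT. Under SHFD the exceptions were MYH1C and MYH1D without SHFD_SOL 1 and 3. Leaving out 1 library gave 9 genes called under CONT and SHFD and 7 to 8 under LHFD. In the diet comparisons it gave 0 to 2 in SOL, SHFD against CONT, 1 to 2 in SOL, LHFD against SHFD, 0 to 1 in PEM, SHFD against CONT, and 0 in the others. Under quantile normalization and under equal nuclear sums 1 gene was called in SOL, SHFD against CONT, and 2 in SOL, LHFD against SHFD, in each case by the addition of MYBPHL (adjusted p = 0.0496 and 0.0494, then 0.0463 and 0.0497). The causes were not tested. Of the diet and interaction values, 62 had an unadjusted limma p of 0.05 or more and no groups without overlap. The sign of these changed in 10 of 549 refits under other settings and in 48 of 1488 without 1 library.

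Backgrounds moved more. Genes called in SOL, SHFD against CONT, numbered 61, against 3 with only the groups compared, 117 with equal nuclear sums, 1 without SHFD_SOL 1 and 3, and 3 to 204 without 1 library. In SOL, LHFD against CONT, 57 became 27 with a pseudocount of 0.1 and 110 after quantile normalization, and ran from 15 to 74 without 1 library. In SOL, LHFD against SHFD, 97 became 46 with only the groups compared and 5 without SHFD_SOL 1 and 3, and ran from 35 to 199 without 1 library. In PEM, SHFD against CONT, 117 became 1, and LHFD against CONT, 760 became 89, with only the groups compared, and they ran from 47 to 173 and from 394 to 949 without 1 library. In PEM, LHFD against SHFD, 22 ran from 9 to 33. For the difference of a diet effect between muscles, 1 gene for SHFD and 0 for LHFD became 5 and 11 without CONT_PEM 1 and 2.

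Same-numbered PEM and SOL libraries deviated together at r over 0.1 in all 4 pairs under CONT (0.163 to 0.295), in 3 of 4 under SHFD and in 0 of 4 under LHFD, with a median of 0.141 over the 12 pairs against -0.068 for differently numbered ones. A pairing of the muscles by number thus met that limit in every pair under CONT only. Under LHFD the highest values lay between differently numbered libraries. They were 0.242 for PEM 1 with SOL 2, and 0.331 for PEM 2 with SOL 3 and for PEM 3 with SOL 4. Which libraries share a hen is not given, so a block by number may not pair the same hens. Same-numbered libraries of different diets passed 0.1 in 6 of 24 pairs. With each diet and number as a block for muscle comparisons, and the number as a block for diet comparisons, no call of the 9 genes changed, with MYLK2 in SOL, LHFD against SHFD, at 1.45 (adjusted p = 0.00329), while genes called in SOL, SHFD against CONT, fell from 61 to 23. Unknown depth leaves the precision of levels under 1 FPKM, such as those of MYH7B in PEM, unknown beyond the spread of libraries.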
